A study of Mus musculus with 21 samples.

Results

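The interferon-stimulated genes described here are 31 genes of the mouse, chosen by name from the 53801 genes of the deposited count table, and all 31 were found and passed the filter that left 20256 genes for testing. The rule that lists them goes by name and uses no measured value, but the list was drawn up with earlier results of these data known. RNA-seq was performed on IgA+ plasma cells (IgA+ PCs), the antibody-secreting cells of the gut wall, sort-purified from the small intestinal lamina propria of 21 C57BL/6 background mice. All mice carried a floxed *Arntl* (Arntl fl/fl), the gene of the clock protein Bmal1. They differed in a Cre recombinase placed in *Mb1* (the gene *Cd79a*), which is active in B cells from early in their development. Control mice were Mb1Cre-/- x Arntlfl/fl, with 6 taken at ZT0 and 6 at ZT12. Knockout mice were Mb1Cre+/- x Arntlfl/fl, with 4 taken at ZT0 and 5 at ZT12. ZT (Zeitgeber time) counts hours from lights on. The ages of the mice were not given in the sources used here. Mice were placed in a group by the sample title, because 8 of the 9 samples titled as knockout carry the control genotype in the genotype field. As the Cre acts from early B cells on, *Arntl* was also deleted in the precursors of the plasma cells, and cells that escaped deletion cannot be told from the others in bulk RNA.

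Interferon-stimulated genes are induced when type I, II or III interferons bind their receptors on a cell. Type I and III interferons act through the kinases Jak1 and Tyk2 and the factor ISGF3, which contains Stat2 and Irf9 and binds the interferon-stimulated response element (ISRE) in the promoters of its targets. The products sense foreign RNA and DNA, block steps of viral replication, or feed back on the pathway, and many of them are kept at a low tonic level in the gut by signals from the microbiota.

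The ISRE was looked for in the 250 bases before the start site of each member in the RefSeq promoter windows of GRCm38.p6, which held 23 of the 31 genes. The letters GAAANNGAAA or the reverse complement TTTCNNTTTC (matches may overlap) were found in 11 of the 23 genes (47.8%), against 3.46% of 27025 genes with a window. The letters CACGTG, the E-box that Bmal1 with its partner Clock is known to bind, were found in 0 of the 23 genes, against 6.86% of all genes. A match is a run of letters and not a measured binding site. The stretches below are shown because they belong to members named in the comparisons, and capitals mark the ISRE letters.
Rsad2, chr12:26456543-26456592, minus strand: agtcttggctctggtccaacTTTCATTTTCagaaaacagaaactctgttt
Gbp7, chr3:142530263-142530312, plus strand: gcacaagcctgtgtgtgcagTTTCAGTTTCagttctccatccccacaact
Stat2, chr10:128270256-128270305, plus strand: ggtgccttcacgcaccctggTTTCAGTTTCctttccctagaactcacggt
Ifit1, chr19:34640765-34640833, plus strand: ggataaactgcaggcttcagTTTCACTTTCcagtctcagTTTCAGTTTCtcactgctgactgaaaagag
Isg15, chr4:156200855-156200916, minus strand: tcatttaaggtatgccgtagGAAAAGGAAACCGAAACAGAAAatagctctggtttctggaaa
Bst2, chr8:71537567-71537622, minus strand: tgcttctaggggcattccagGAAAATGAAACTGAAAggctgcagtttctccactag
The other 5 members with the letters were *Ifit3*, *Oas1a*, *Trim30a*, *Gbp2* and *Gbp3*. *Dhx58*, *Zbp1*, *Usp18*, *Mx1*, *Rtp4*, *Parp9*, *Parp14* and *Ifi27* had no window in the table.

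Each mouse gave 1 library with 14471018 to 22785835 counts, of which 51.5% to 63.6% fell on immunoglobulin genes. Levels are given in CPM, counts scaled to library size with edgeR's TMM factors. *Arntl*, counted over the whole gene, had means of 7.80 (SD 0.53, n = 6) and 4.54 CPM (SD 0.55, n = 6) in control mice of ZT0 and ZT12. In knockout mice its means were 4.87 (SD 1.08, n = 4) and 3.89 CPM (SD 0.70, n = 5), and replicate 3 of ZT0 reached 6.47 CPM. *Cd79a*, which carries the Cre, was between 386 and 586 CPM in control mice and between 163 and 276 CPM in knockout mice. Control ZT12 replicates 2 and 4 and knockout ZT0 replicate 3 stood apart from the other libraries. Compared with the mean of all libraries, long genes were low in them. Their slopes were -0.25, -0.15 and -0.13 on the log2 scale per doubling of gene length, against -0.07 to 0.10 in the other 18 libraries. Knockout ZT0 replicate 3 also held transcripts of *Xist* at 428 CPM beside the Y chromosome gene *Ddx3y* at 20.7 CPM. Plasma cell markers were abundant in each mouse, with a summed level of 42789 CPM or more over 10 markers. As each sample is 1 mouse, p-values measure the spread between mice within a group.

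The 31 genes spanned a wide range of levels in these cells. On the scale of CPM per kilobase of gene length, *Bst2*, which encodes tetherin, a membrane protein that holds budding virus particles at the cell surface, had the highest mean, 205 CPM per kb. It was followed by *Gbp2* at 16.8, *Isg15* at 13.8, *Zbp1* at 13.0 and *Irf7* at 12.1 CPM per kb. Without division by length *Bst2* (mean 185 CPM), *Ddx58* (57.8 CPM) and *Parp14* (53.0 CPM) were the most abundant. At the other end, *Ifit1*, *Ifit2*, *Ifit3*, *Oas1a*, *Usp18*, *Rtp4* and *Ifi44* had means under 1 CPM. *Ifi44* had 20 counts in all 21 libraries together and 0 in 12 of them. *Ifit3* had 59 counts in all, *Rtp4* 88 and *Ifit1* 137, so that their fold changes rest on few reads. The *Ifit* genes encode proteins that bind viral RNA and are, in many cells, among the first induced by interferon, whereas here they were near the limit of what was counted.

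*Ddx58* encodes Rig-I, a sensor of viral RNA. It was at 53.9, 59.8 and 65.2 CPM (lowest, median, highest) in control mice at ZT0 and at 36.8, 52.3 and 62.8 CPM at ZT12. In knockout mice the levels were 67.3, 68.9, 60.8 and 66.3 CPM at ZT0, then 55.0, 48.7, 55.4, 62.8 and 57.7 CPM for ZT12. The groups overlapped in both genotypes. The log2 fold changes from ZT0 to ZT12 were -0.22 (SE 0.10, adjusted p = 0.25 from edgeR) and -0.24 (SE 0.12, adjusted p = 0.615 from edgeR). *Bst2* was at 168, 173 and 191 CPM in control mice at ZT0, then at 135, 181 and 315 CPM at ZT12, the highest value being that of control ZT12 replicate 2. In knockout mice *Bst2* was at 205, 181, 259 and 165 CPM at ZT0 and at 170, 189, 149, 144 and 173 CPM at ZT12. Its log2 fold changes were 0.14 (SE 0.15, adjusted p = 0.644 from edgeR) and -0.29 (SE 0.17, adjusted p = 0.662 from edgeR), and the mice overlapped between the times in both genotypes. In control mice the value was -0.04 without control ZT12 replicate 2. It was -0.11 with scaling to library size only, which also moved the median of all genes below 0.

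**Figure D1:**
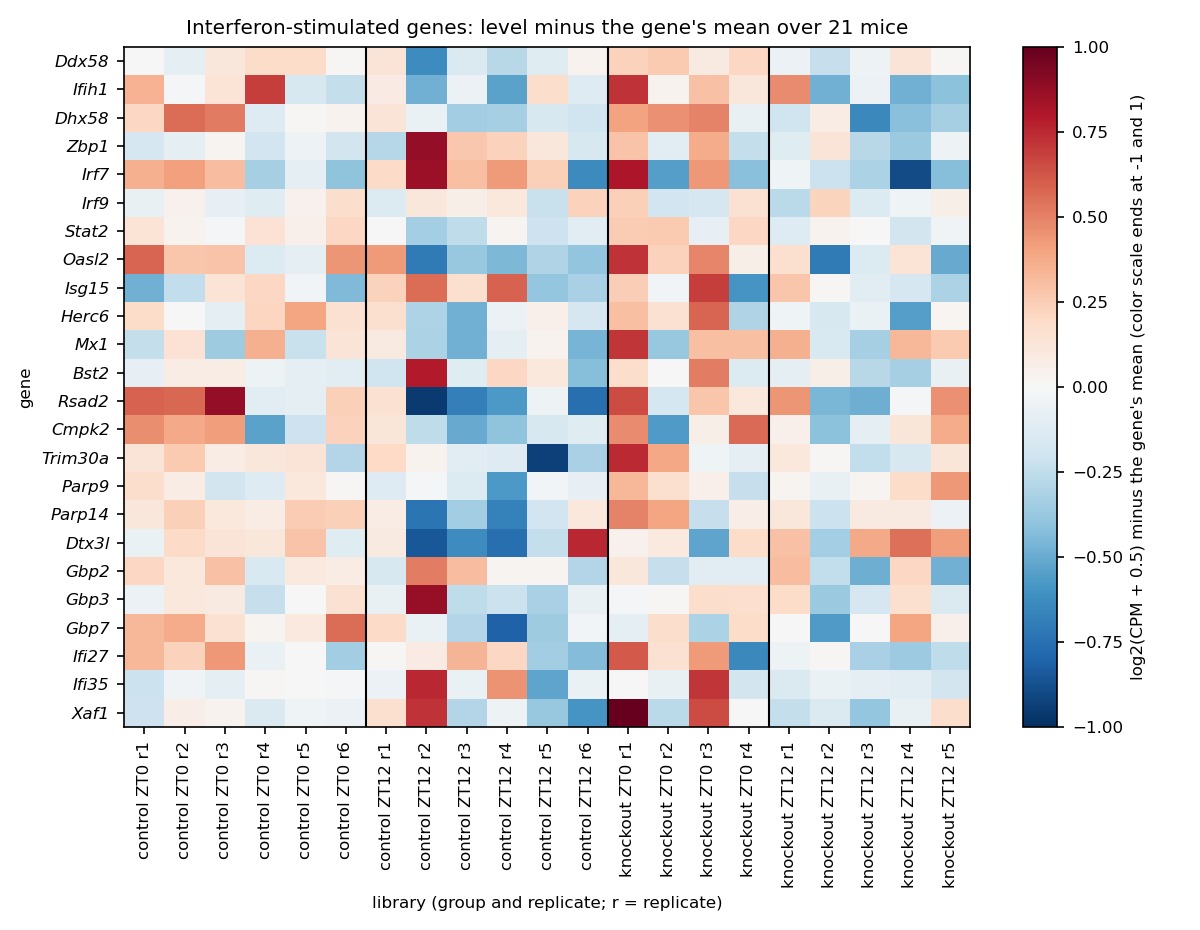
Level of the 24 interferon-stimulated genes with a mean of at least 1 CPM in each of the 21 libraries (columns, grouped by genotype and time), as log2(CPM + 0.5) minus the gene's mean over all libraries. Control ZT12 replicate 2 held both the highest level of 6 members and the lowest level of 9 members, and knockout ZT0 replicate 1 the highest level of 9 members, counted over all 31 genes.

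The comparison of ZT12 with ZT0 in control mice addresses whether these genes vary between the times of day. Most were a little lower at ZT12: 20 of the 31 had a negative log2 fold change, with a median of -0.24 (0.01 over all genes tested). At an adjusted p under 0.05, referred to as called, edgeR's quasi-likelihood test called 0 of the 31 members, where it called 1.73% of all genes. DESeq2 called 2 of them (*Rsad2* and *Parp14*), where it called 8.5% of the genes it gave an adjusted p. At an unadjusted p under 0.05 there were 8 members, against 18.1% of all genes, and 7 of the 8 were lower at ZT12 (8.86% of all genes). By role, all 3 genes of the PARP group (*Parp9*, *Parp14*, *Dtx3l*), both *Oas* genes, 5 of the 6 genes acting on viral entry, budding and replication and 3 of the 4 sensors had a negative log2 fold change. *Isg15*, *Usp18*, *Ifit1*, *Ifit2*, *Irf7*, *Irf9*, *Zbp1*, *Bst2*, *Gbp3*, *Ifi35* and *Xaf1* had a positive one, which turned negative for *Irf7*, *Irf9*, *Bst2*, *Gbp3*, *Ifi35* and *Xaf1* with scaling to library size only. That scaling also moved the median of all genes tested below 0, so that these turns are not particular to the members. Of the 31 values, 15 changed sign in at least 1 alternative setting and 16 in none. The share of counts on immunoglobulin genes was 51.5% to 53.3% in control mice at ZT0 and 53.3% to 63.6% at ZT12. It was higher in each control mouse at ZT12 than in each at ZT0, though the nearest mice were all but tied at 53.3%. Control ZT12 replicates 1, 3 and 6 were at 53.9%, 53.3% and 55.0%, and replicates 2, 4 and 5 at 63.6%, 59.5% and 59.1%. Share and time of day thus cannot be fully told apart in control mice. A model term for that share, chosen after the data were seen, turned the sign of 10 members in control mice, *Zbp1*, *Irf7*, *Bst2* and *Ifi35* among them, and brought the median of the members to -0.14. For all 31 genes the mice at ZT0 and ZT12 overlapped (1.6% of all genes had groups without overlap).

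*Rsad2* (chromosome 12, 26442746 to 26456452) had the smallest p of the members. It encodes viperin, an enzyme that makes a chain-terminating nucleotide from CTP. In control mice it was at 10.9, 15.9 and 22.2 CPM (lowest, median, highest) at ZT0 and at 5.83, 7.48 and 13.2 CPM at ZT12. Only 2 mice at ZT12 reached above the lowest mouse at ZT0. The log2 fold change was -0.85 (SE 0.24, adjusted p = 0.0719 from edgeR). An exact permutation test of the levels gave a two-sided p = 0.013, where the smallest p that this design allows is 0.00216. *Cmpk2*, its neighbour at a distance of 12751 bases and on the opposite strand, encodes a mitochondrial nucleotide kinase and had means of 26.4 (SD 6.76, n = 6) and 20.2 CPM (SD 3.23, n = 6), with a log2 fold change of -0.38 (SE 0.19, adjusted p = 0.301 from edgeR).

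*Parp14* (chromosome 16, 35832874 to 35871544) encodes a mono-ADP-ribosyltransferase. It was at 54.6, 58.7 and 62.1 CPM in control mice at ZT0 and at 31.1, 43.0 and 56.0 CPM at ZT12. The log2 fold change was -0.43 (SE 0.13, adjusted p = 0.0912 from edgeR, two-sided exact permutation p = 0.00649), with 5 of the 6 mice at ZT12 below all mice at ZT0. With the term for the immunoglobulin share it was -0.13 (SE 0.13, adjusted p = 0.829 from edgeR). *Gbp7* (chromosome 3, 142530342 to 142550149) encodes a guanylate-binding protein, a class of GTPases that attack vacuoles of intracellular pathogens. It was at 16.3, 19.0 and 23.7 CPM at ZT0 and at 8.89, 14.1 and 18.2 CPM at ZT12, a log2 fold change of -0.47 (SE 0.15, adjusted p = 0.111 from edgeR, two-sided exact permutation p = 0.0108). *Gbp2* and *Gbp3*, which lie in the same cluster, had log2 fold changes of -0.01 (SE 0.14) and 0.04 (SE 0.16). The genes of this family are known to be alike in sequence, and how reads that match several of them were counted is not given in the sources used here, so that all 3 values are uncertain. *Zbp1*, a sensor of Z-form nucleic acids, was the only member with an unadjusted p under 0.05 and a higher level at ZT12. Its log2 fold change of 0.34 (SE 0.15, adjusted p = 0.228 from edgeR) rested on 36.9, 50.8 and 83.2 CPM at ZT12 against 39.3, 41.1 and 45.8 CPM at ZT0, and was -0.01 (SE 0.14) with the term for the immunoglobulin share.

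**Figure D2:**
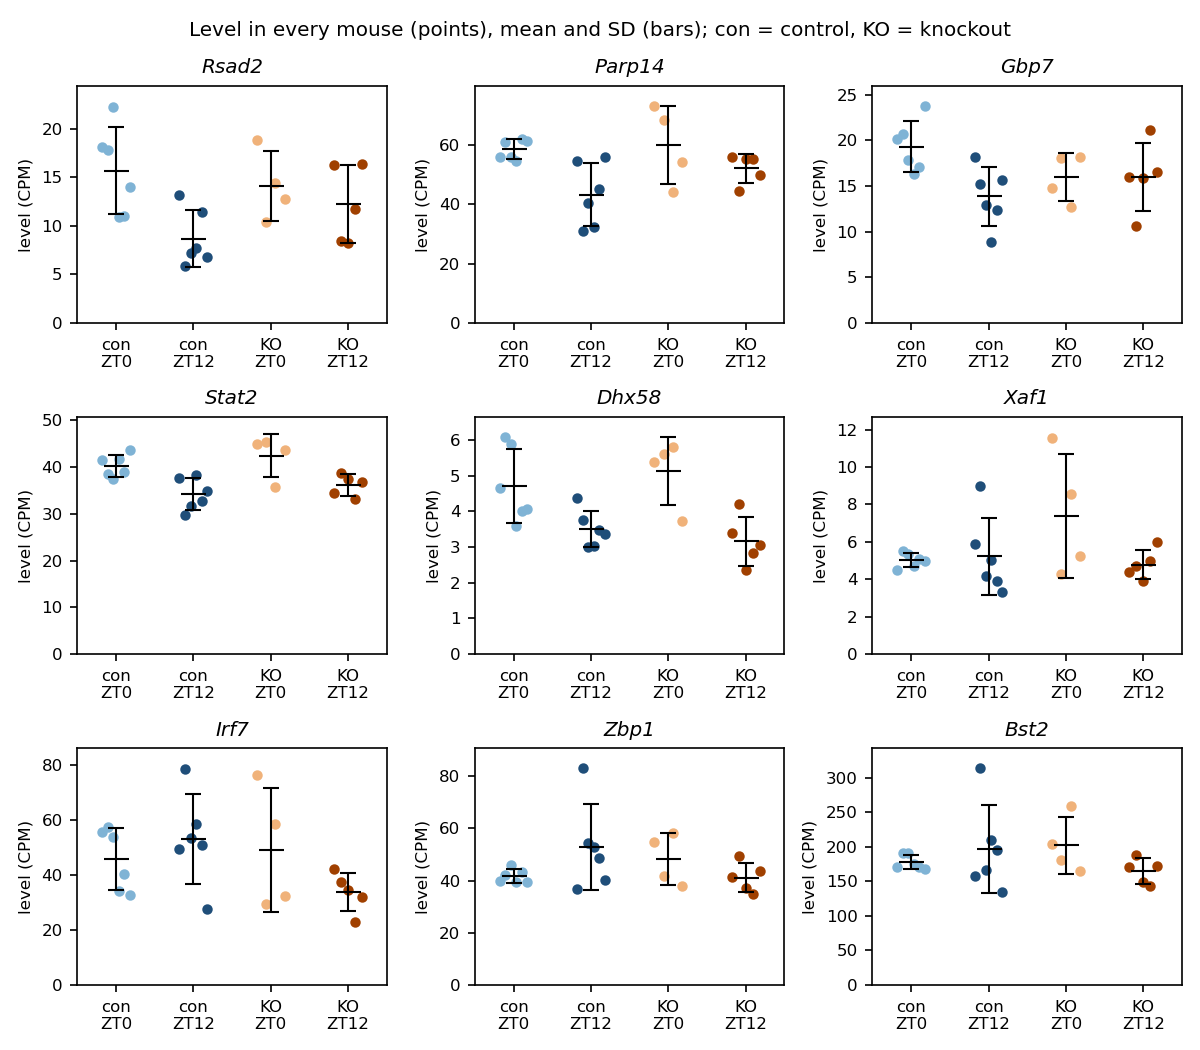
Level in CPM of 9 interferon-stimulated genes in every mouse (points) by group, with the mean and SD (bars); the axes start at 0. *Rsad2*, *Parp14* and *Gbp7* lay lower in control mice at ZT12 with overlap between the times, and *Zbp1* and *Bst2* had their highest value, 83.2 and 315 CPM, in the same control mouse at ZT12.

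In knockout mice the same comparison asks whether a time of day difference is present without Bmal1 in the B cell lineage. Again most members were lower at ZT12, with 24 of 31 negative log2 fold changes and a median of -0.23 (0.01 over all genes tested). EdgeR called 0 members and 0% of all genes, and DESeq2 called 0 members (0.319% of the genes it gave an adjusted p). At an unadjusted p under 0.05 there were 6 members, against 8.01% of all genes, and all 6 (*Dhx58*, *Xaf1*, *Stat2*, *Oasl2*, *Herc6* and *Ifit1*) were lower at ZT12 (4.09% of all genes). All 4 sensors, all 3 signalling genes, all 3 genes of the Isg15 system and all 6 genes of viral entry, budding and replication had a negative log2 fold change. *Ifit1* was the only member whose groups did not overlap (2.63% of all genes were without overlap, and 1.41% without overlap and lower), at 1.10, 0.51, 0.53 and 0.55 CPM at ZT0 against 0.31, 0.06, 0.07, 0.32 and 0.35 CPM at ZT12, on at most 20 counts a mouse. Its log2 fold change was -1.56 (SE 0.75, adjusted p = 0.615 from edgeR, two-sided exact permutation p = 0.00794, the smallest possible).

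*Dhx58* (chromosome 11, 100694884 to 100704271) encodes Lgp2, a helicase that regulates Rig-I and Mda5. It was at 5.39, 5.61, 5.80 and 3.73 CPM in knockout mice at ZT0 and at 3.39, 4.20, 2.35, 2.83 and 3.05 CPM at ZT12, so that 1 mouse at ZT0 lay within the range of ZT12. The log2 fold change was -0.69 (SE 0.22, adjusted p = 0.506 from edgeR, two-sided exact permutation p = 0.0238). In control mice its means were 4.71 (SD 1.05, n = 6) and 3.51 CPM (SD 0.51, n = 6), with a log2 fold change of -0.42 (SE 0.19, adjusted p = 0.231 from edgeR). *Stat2* (chromosome 10, 128270559 to 128292849), a subunit of ISGF3, was at 44.9, 45.3, 35.6 and 43.6 CPM in knockout mice at ZT0, and 34.5, 38.7, 37.5, 33.2 and 36.9 CPM were measured at ZT12, 1 mouse at ZT0 lying among those of ZT12. Its log2 fold changes were nearly equal in the genotypes, -0.23 (SE 0.10, adjusted p = 0.613 from edgeR, two-sided exact permutation p = 0.0476) in knockout mice and -0.24 (SE 0.08, adjusted p = 0.141 from edgeR) in control mice. *Xaf1*, which encodes an antagonist of the apoptosis inhibitor Xiap, was at 11.5, 4.27, 8.54 and 5.22 CPM at ZT0 against 4.38, 4.68, 3.90, 4.96 and 5.98 CPM at ZT12. Its log2 fold change of -0.63 (SE 0.26, adjusted p = 0.613 from edgeR, two-sided exact permutation p = 0.127) was carried by replicates 1 and 3 at ZT0, and was -0.33 without knockout ZT0 replicate 1.

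**Figure D3:**
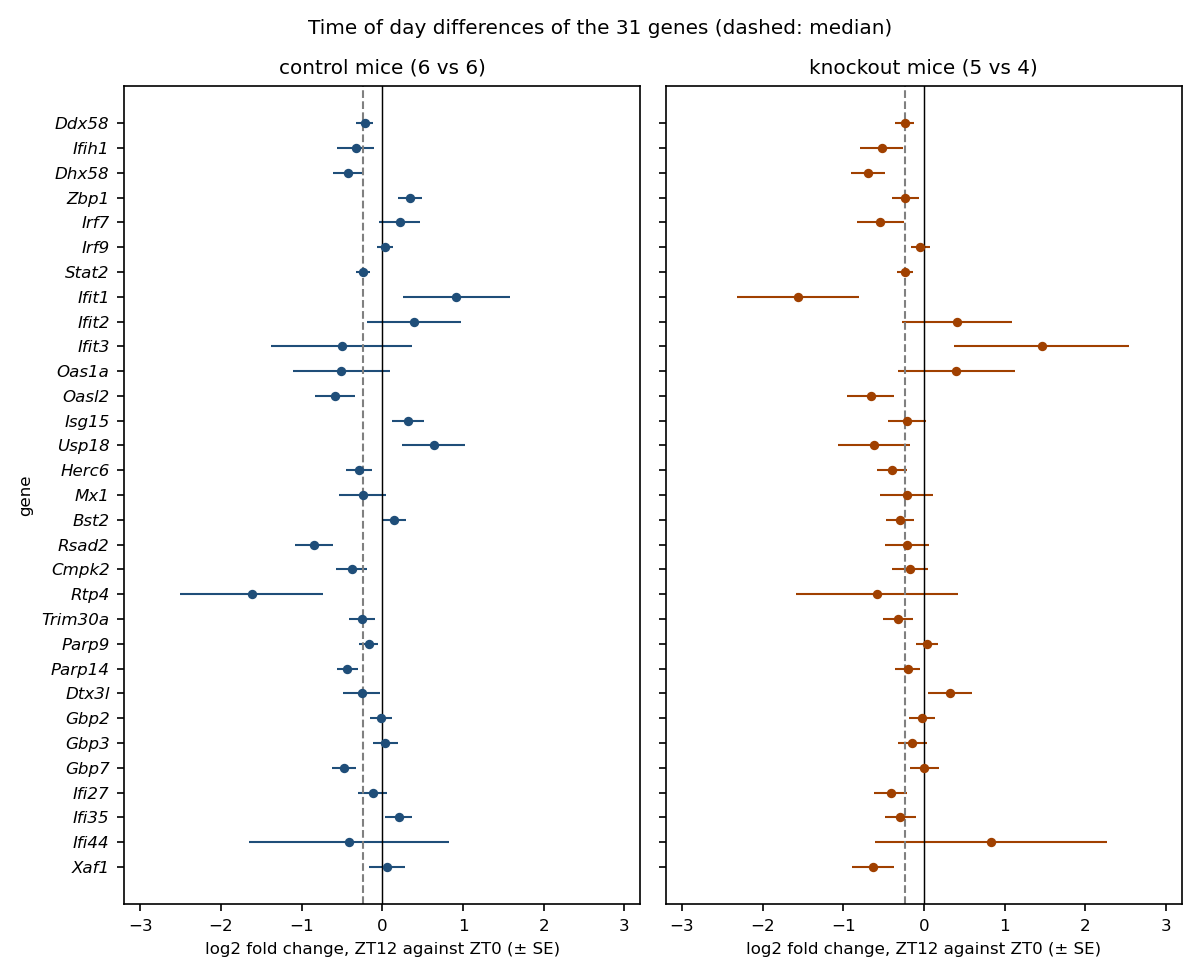
Log2 fold change from ZT0 to ZT12 of each of the 31 genes with its SE, in control mice (6 against 6) and in knockout mice (5 against 4), with the median of the 31 genes dashed. The medians are -0.24 and -0.23, and the widest errors belong to the genes with under 1 CPM.

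The other members were spread around these medians. *Oasl2*, an Oas-like gene, had one of the larger differences at a level above 1 CPM in both genotypes, with means of 3.31 (SD 0.74, n = 6) and 2.19 CPM (SD 0.82, n = 6) in control mice. In knockout mice the means were 3.72 (SD 0.86, n = 4) and 2.35 CPM (SD 0.73, n = 5). The log2 fold changes were -0.59 (SE 0.25, adjusted p = 0.212 from edgeR) and -0.66 (SE 0.29, adjusted p = 0.613 from edgeR). *Ifih1*, which encodes the sensor Mda5, was at -0.33 (SE 0.23) in control mice and -0.52 (SE 0.27) in knockout mice. *Herc6*, the ligase that joins Isg15 to its targets in the mouse, was at -0.29 (SE 0.16) and -0.39 (SE 0.19). *Trim30a*, a regulator of innate signalling, was at -0.25 (SE 0.16) and -0.32 (SE 0.18). *Mx1*, a dynamin-like GTPase whose allele in C57BL/6 mice encodes no functional protein, was at -0.24 (SE 0.29) and -0.21 (SE 0.33). These 5 genes thus had negative values in both genotypes, none of them called.

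The values of the remaining members were mixed. *Isg15* was at 0.32 (SE 0.20) in control and -0.21 (SE 0.24) in knockout mice, and *Ifi35* at 0.20 (SE 0.17) and -0.29 (SE 0.19). With the trend on gene length removed, *Isg15* was at -0.01 (SE 0.17) and -0.14 (SE 0.20), and *Ifi35* at 0.02 (SE 0.13) and -0.24 (SE 0.15). Without knockout ZT0 replicate 3 *Isg15* was at 0.04 and *Ifi35* at -0.04 in knockout mice. *Dtx3l*, the ligase partner of Parp9, was at -0.25 (SE 0.23) and 0.32 (SE 0.27), and at 0.12 in control mice with the term for the immunoglobulin share. *Irf9*, the DNA-binding subunit of ISGF3, lay near 0, with means between 30.1 and 31.4 CPM in the 4 groups and log2 fold changes of 0.03 (SE 0.10) and -0.05 (SE 0.12). It overlaps *Rnf31* (8879 counts in all, against 10815 for *Irf9*) on the same strand. *Ifi27* was at -0.12 (SE 0.18) and -0.41 (SE 0.21), and *Gbp2* and *Gbp3* were at -0.02 (SE 0.16) and -0.14 (SE 0.18) in knockout mice. Among the members under 1 CPM the errors were larger than most differences. *Rtp4*, a chaperone of receptors, was at -1.62 (SE 0.89) in control mice and -0.58 (SE 1.01) in knockout mice. *Ifit3* was at -0.50 (SE 0.88) and 1.46 (SE 1.09), and *Oas1a* at -0.51 (SE 0.60) and 0.40 (SE 0.72). *Ifi44* was at -0.41 (SE 1.24) and 0.83 (SE 1.43). *Ifit2* was at 0.39 (SE 0.58) and 0.41 (SE 0.69), the only member with a positive value in both genotypes.

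A negative log2 fold change in both genotypes was found for 14 of the 31 members (45.2%), against 25.0% of all genes tested. The share in both depends on the share in each. Taken singly, 64.5% of the members were negative in control and 77.4% in knockout mice (49.3% and 48.9% of all genes). Whether the same genes were lower in both genotypes beyond those shares was not tested. Without the 7 genes under 1 CPM, 16 of 24 were negative in control mice with a median of -0.23, and 21 of 24 in knockout mice with a median of -0.23. The difference between the genotypes was tested as the interaction, the log2 fold change in knockout mice minus that in control mice. Its median over the members was -0.07 (0.01 over all genes tested). EdgeR called 0 members and 0% of all genes, and DESeq2 called 0 members (0.0279% of the genes it gave an adjusted p). In all, 3 members had an unadjusted p under 0.05, against 10.8% of all genes. These were *Zbp1*, *Ifit1* and *Usp18*, each with a positive log2 fold change in control mice and a negative one in knockout mice. *Zbp1* was at 54.9, 41.8, 58.4 and 38.1 CPM at ZT0 against 41.4, 49.2, 37.0, 34.8 and 43.5 CPM at ZT12 in knockout mice, and its interaction was -0.57 (SE 0.23, adjusted p = 0.442 from edgeR), or -0.29 with control ZT12 replicate 2 and knockout ZT0 replicate 3 both left out and -0.18 with the term for the immunoglobulin share. For *Ifit1* it was -2.48 (SE 1.00, adjusted p = 0.442 from edgeR). For *Usp18*, which encodes the protease that removes Isg15 from proteins and restrains the type I receptor, it was -1.26 (SE 0.59, adjusted p = 0.455 from edgeR), or -0.83 without knockout ZT0 replicate 3 and -0.49 with the term for the immunoglobulin share. Both genes had 32 counts a mouse or fewer. *Usp18* was at 0.53, 0.67 and 0.92 CPM in control mice at ZT0 and at 0.43, 1.25 and 1.58 CPM at ZT12. In knockout mice it was at 0.77, 0.57, 2.00 and 1.14 CPM at ZT0 and at 1.11, 0.73, 0.67, 0.71 and 0.41 CPM at ZT12. For *Rsad2* the interaction was 0.64, and its levels in knockout mice, 18.8, 10.4, 14.4 and 12.8 CPM at ZT0 against 16.3, 8.46, 8.27, 11.7 and 16.4 CPM at ZT12, gave a log2 fold change of -0.21 (SE 0.27, adjusted p = 0.883 from edgeR). The intervals of the interaction were wide at these numbers of mice: for *Stat2*, with 0.01, the 95% limits were -0.25 and 0.27, and for *Rsad2* they were -0.11 and 1.39.

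At ZT0 the median log2 fold change of knockout against control mice was 0.08 (-0.01 over all genes tested), with 22 of 31 positive. EdgeR called 0 members (0.00987% of all genes), DESeq2 called 0 (0.0247% of the genes it gave an adjusted p), and 1 member, *Xaf1*, had an unadjusted p under 0.05 (4.9% of all genes). *Xaf1* was at 4.48, 5.04 and 5.50 CPM in the control mice, all close together, and the knockout mice given above lay on both sides of them. The log2 fold change of 0.56 (SE 0.25, adjusted p = 0.926 from edgeR) was 0.26 without knockout ZT0 replicate 1. *Ifit1* was at 0.06, 0.17 and 0.71 CPM in control mice at ZT0, and its log2 fold change was 1.45 (SE 0.71, adjusted p = 0.926 from edgeR). For *Usp18* it was 0.69 (SE 0.43, adjusted p = 0.926 from edgeR), and 0.27 without knockout ZT0 replicate 3. The groups overlapped for all 31 members (0.977% of all genes had groups without overlap).

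At ZT12 the median log2 fold change of knockout against control mice was -0.01 (-0.01 over all genes tested), with 14 of 31 positive. EdgeR called 0 members (0.0148% of all genes), DESeq2 called 0 (0.0574% of the genes it gave an adjusted p), and 3 had an unadjusted p under 0.05 (8.83% of all genes). *Irf7* encodes the transcription factor that amplifies the production of type I interferon. It was at 27.6, 52.3 and 78.5 CPM in control mice and 42.0, 37.3, 34.6, 23.0 and 32.2 CPM in knockout mice, with 1 control mouse inside the range of the knockout mice. The log2 fold change was -0.65 (SE 0.27, adjusted p = 0.562 from edgeR, two-sided exact permutation p = 0.0368, smallest possible 0.00216), and -0.43 with the term for the immunoglobulin share. *Parp9*, which encodes a partner of the ubiquitin ligase Dtx3l, was at 9.61, 13.5 and 14.3 CPM in control mice and 14.8, 13.8, 14.8, 16.6 and 19.8 CPM in knockout mice. Its log2 fold change was 0.29 (SE 0.12, adjusted p = 0.562 from edgeR, two-sided exact permutation p = 0.00866), and 0.19 without knockout ZT12 replicate 5. The groups overlapped for all 31 members (0.38% of all genes had groups without overlap). *Zbp1* had a log2 fold change of -0.36 (SE 0.16, adjusted p = 0.562 from edgeR) and was -0.18 without control ZT12 replicate 2 and -0.13 with the term for the immunoglobulin share. *Parp9* and *Dtx3l* overlap by 682 bases on opposite strands, and *Irf7* overlaps *Phrf1* (18084 counts in all). Whether reads were counted by strand is not given in the sources used here, so that part of the reads of these genes may belong to the other gene.

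The time of day differences of the members in control mice varied with gene length. The 15 genes longer than 3927 bases had a median log2 fold change from ZT0 to ZT12 of -0.29, with 13 of them negative, and the other 16 genes a median of 0.09, with 7 negative. In knockout mice the medians were -0.21 and -0.26. Across the 31 genes, which share the same libraries and are not replicates, Spearman's rho of length with the log2 fold change was -0.34 in control mice and 0.06 in knockout mice. *Isg15* (756 bases), the ubiquitin-like protein that is attached to viral and host proteins, and *Bst2* (903 bases) are the shortest members and had log2 fold changes of 0.32 and 0.14 in control mice. *Parp14* (9306 bases) is the longest, at -0.43. Of the 6 control mice at ZT12, replicates 2 to 5 had slopes on gene length between -0.25 and -0.07, and the 6 at ZT0 had slopes between 0.02 and 0.10. When each library's trend on gene length was removed, the medians of the longer and the shorter genes in control mice were -0.22 and -0.06. *Isg15* was then at -0.01 (SE 0.17) and *Bst2* at -0.19 (SE 0.09, adjusted p = 0.245 from edgeR), so that neither kept a positive value, and *Parp14* was at -0.32 (SE 0.10). The median of all 31 was then -0.19 with 23 negative, and edgeR called 0 members (smallest adjusted p = 0.0831). In knockout mice the median was then -0.24 with 25 negative. With control ZT12 replicate 2 and knockout ZT0 replicate 3 both left out, the medians were -0.20 in control and -0.20 in knockout mice, and 0 members were called. Control ZT12 replicate 4, with a slope of -0.15, was kept in that fit.

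**Figure D4:**
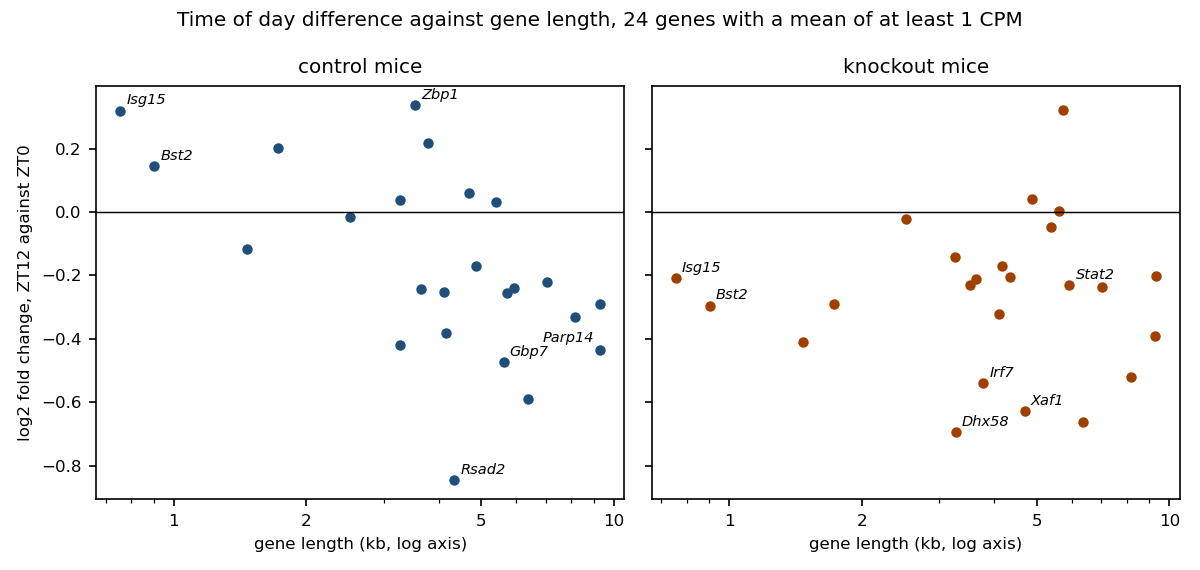
Log2 fold change from ZT0 to ZT12 against gene length (log axis) for the 24 genes with a mean of at least 1 CPM, in control and knockout mice. In control mice the shortest genes, *Isg15* and *Bst2*, lie above 0 and the longest, *Parp14*, lies at -0.43, without removal of the trend on gene length, and in knockout mice no such slope is seen.

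Mice of one group also differed in a way the labels do not describe. *Xist*, the RNA that coats the inactive X chromosome, was at 329 CPM or more in 10 mice and at 3.51 CPM or less in the other 11, and both kinds occurred in each of the 4 groups (3 of 6, 3 of 6, 2 of 4 and 2 of 5 with *Xist*). The Y chromosome gene *Ddx3y* was at 87.5 to 114 CPM in these 11 mice. It was at 2.23 CPM or less in the mice with *Xist*, apart from knockout ZT0 replicate 3 at 20.7 CPM. The sex of the mice was not given in the labels, but apart from that library these genes mark the mice with *Xist* as female and the others as male. With a term for *Xist* added to the model, a choice made after the data were seen, 24 of the 31 members were higher in mice with *Xist*, with a median log2 difference of 0.19 (0.01 over all genes). Of these, 7 had an unadjusted p under 0.05 (2.83% of all genes were higher at that p), and none of the lower members had. *Rsad2* was called, with a log2 difference of 0.62 (SE 0.11, adjusted p = 0.0166 from edgeR). Of all genes 0.0741% were called, 15 genes of which 4 lie on neither X nor Y. In control mice at ZT0, with 3 mice of each kind, *Rsad2* was at 18.1, 17.8 and 22.2 CPM with *Xist* and at 10.9, 11.0 and 14.0 CPM without it. At ZT12 the means were 10.1 CPM and 7.26 CPM. *Irf7* was at 55.6, 57.6 and 53.7 CPM with *Xist* and at 34.2, 40.5 and 32.7 CPM without it in control mice at ZT0. Its log2 difference over all groups was 0.56 (SE 0.14, adjusted p = 0.415 from edgeR). The other 5 were *Xaf1* (0.44), *Cmpk2* (0.35), *Dhx58* (0.30), *Bst2* (0.25) and *Ifit1* (1.01). *Stat2* and *Irf9*, subunits of ISGF3, had log2 differences of -0.08 (SE 0.06) and -0.10 (SE 0.08).

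Without knockout ZT0 replicate 3, the library with both *Xist* and *Ddx3y*, 24 of 31 members were higher with *Xist*, with a median of 0.21. Then 6 had an unadjusted p under 0.05, and *Rsad2* was called (log2 difference 0.66, adjusted p = 0.0115 from edgeR). Within the mice with *Xist* the median log2 fold change of the members from ZT0 to ZT12 was -0.18 in control mice and -0.26 in knockout mice, and within the others it was -0.24 and -0.10, with 0 members called in each of these 4 comparisons. *Rsad2* was at -0.93 and -0.73 in the control mice with and without *Xist*. In the deposited table the columns run 3 times through the groups, 7 libraries each time, and all 7 libraries of the first run hold *Xist*. Of the other 14, only control ZT12 replicate 5, knockout ZT12 replicate 5 and knockout ZT0 replicate 3 hold it, so that *Xist* and the place in the table can barely be told apart. In control mice at ZT0 all mice with *Xist* are of the first run and all others of later runs. The levels of *Rsad2* and *Irf7* given for these mice therefore cannot separate *Xist* from place in the table. What the runs mark is not given in the sources used here.

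**Figure D5:**
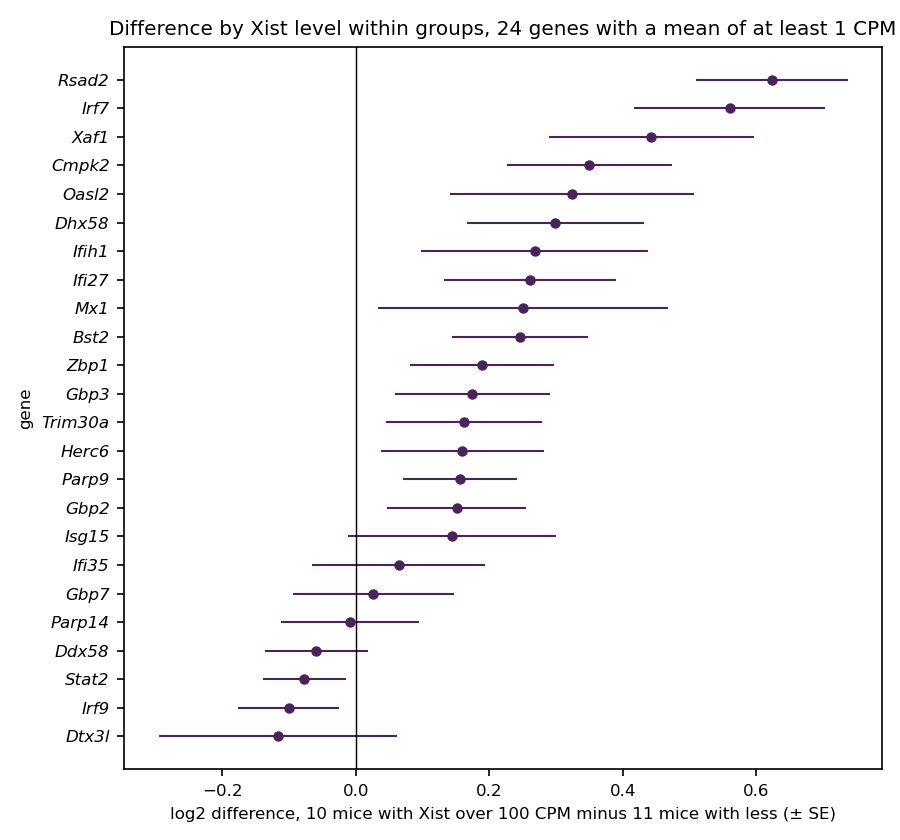
Log2 difference between 10 mice with Xist above 100 CPM and 11 mice with less, fitted within the 4 groups, with its SE, for the 24 genes with a mean of at least 1 CPM. *Rsad2* (0.62) and *Irf7* (0.56) stand at the upper end and *Stat2* (-0.08) and *Irf9* (-0.10) near the lower end.

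The rest of the interferon pathway was described through 87 further genes, of which 78 passed the filter. At the top of the pathway, 7 of 9 interferon genes (*Ifnb1*, *Ifna1*, *Ifna2*, *Ifna4*, *Ifnl2*, *Ifnl3* and *Ifne*) had 0 counts in all 21 libraries, which allows a level of up to 0.132 to 0.207 CPM in a library (3 counts of its total, counting error only). *Ifng* had at most 6 counts and *Ifnk* at most 3 in a library. The type I receptor genes *Ifnar1* and *Ifnar2* were expressed in all groups, *Ifnar1* with means of 155 (SD 7.09, n = 6) and 137 CPM (SD 12.8, n = 6) at ZT0 and ZT12 in control mice and 147 (SD 20.7, n = 4) and 144 CPM (SD 15.0, n = 5) in knockout mice. The type III receptor gene *Ifnlr1* had at most 8 counts in a library.

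In control mice 5 of the 78 pathway genes were called by edgeR, all lower at ZT12 (1.73% of all genes were called, and 0.78% lower). DESeq2 called 10, where it called 8.5% of the genes it gave an adjusted p. Of the 78 genes 49 had a negative log2 fold change, with a median of -0.08, and in knockout mice 49 were again negative, also with a median of -0.08. *Ifi203*, an interferon-induced gene of the PYHIN family, fell from a mean of 47.5 (SD 3.85, n = 6) to 29.2 CPM (SD 5.62, n = 6), with a log2 fold change of -0.70 (SE 0.12, adjusted p = 0.00905 from edgeR). *Tmem173*, which encodes the DNA sensing adaptor Sting, fell from a mean of 39.1 (SD 1.90, n = 6) to 24.8 CPM (SD 5.56, n = 6), with a log2 fold change of -0.66 (SE 0.12, adjusted p = 0.0107 from edgeR). In both genes, as in *Trim21*, each mouse at ZT12 lay below each mouse at ZT0 (0.859% of all genes were without overlap and lower). In knockout mice *Ifi203* had a log2 fold change of -0.14 (SE 0.14, adjusted p = 0.829 from edgeR) and *Tmem173* one of -0.23 (SE 0.14, adjusted p = 0.685 from edgeR). The interactions were 0.56 (adjusted p = 0.442 from edgeR) and 0.43 (adjusted p = 0.442 from edgeR). Also called were *Ptpn6*, the gene of the phosphatase Shp1, at -0.51 (adjusted p = 0.0321 from edgeR), and *Uba7*, the enzyme that activates Isg15, at -0.39 (adjusted p = 0.045 from edgeR). The last was *Trim21*, an antibody-binding ubiquitin ligase, at -0.60 (adjusted p = 0.0479 from edgeR). The immunoglobulin share cannot be fully told apart from time of day in control mice. With the model term for it, edgeR called 0 of the 78 genes, 0 of the 31 members and 0 of all genes. At an unadjusted p under 0.05 there were then 8 of the 78 pathway genes and 2 of the 31 members, against 8.14% of all genes, and *Ifi203* was at -0.41 (SE 0.12) and *Tmem173* at -0.46 (SE 0.13). *Ifi203* was called in 34 of 35 alternative settings and *Tmem173* in 33, whereas *Ptpn6*, *Uba7* and *Trim21* were called in 22, 12 and 9.

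In knockout mice 0 of the 78 pathway genes were called by edgeR or DESeq2, and 17 had an unadjusted p under 0.05 (8.01% of all genes), 14 of them lower at ZT12 (4.09% of all genes). The smallest p-values were those of *Ptpn6* (log2 fold change -0.55), *Gbp9* (-0.50) and *Tyk2* (-0.56), a kinase of the type I receptor, each with adjusted p = 0.289 from edgeR. In the interaction 0 were called by either tool and 13 had an unadjusted p under 0.05 (10.8% of all genes), led by *Psmb9* (-0.58), *Ifngr2* (-1.13) and *Ifi203* (0.56), each with adjusted p = 0.442 from edgeR. Between the genotypes, 0 were called by either tool at ZT0 (9 with an unadjusted p under 0.05, against 4.9% of all genes) and at ZT12 (5, against 8.83% of all genes). At ZT0 *Irf8*, a transcription factor of B cells and myeloid cells, had a mean of 58.6 (SD 13.2, n = 6) in control mice and of 35.5 CPM (SD 1.09, n = 4) in knockout mice without overlap (0.474% of all genes were without overlap and lower). Its log2 fold change was -0.72 (SE 0.21, adjusted p = 0.926 from edgeR). *Tap1* (0.31) and *Trim25* (-0.32) came next, also with adjusted p = 0.926 from edgeR. At ZT12 the 3 smallest p-values were those of *Ifi203* (0.40), *Trim21* (0.49) and *Tmem173* (0.36), each with adjusted p = 0.562 from edgeR.

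Cells other than plasma cells can carry interferon-stimulated transcripts, and their markers were read in the same libraries. In bulk RNA, fewer cells of a type and less RNA per cell cannot be told apart. The summed level of 12 myeloid markers was 66.3 to 115 CPM in control mice at ZT0, 24.4 to 140 CPM at ZT12, 26.3 to 118 CPM in knockout mice at ZT0 and 69.5 to 125 CPM at ZT12. It was lowest in control ZT12 replicate 2 and knockout ZT0 replicate 3, which held the highest and the second highest levels of *Bst2*. In both libraries long genes were low (slopes of -0.25 and -0.13), and *Bst2*, at 903 bases, is among the shortest members. The 8 plasmacytoid dendritic cell markers, *Bst2* among them, summed to between 485 and 600 CPM. Most of that sum came from *Bst2* (135 to 315 CPM), *Tcf4* (183 to 267 CPM) and *Ccr9* (72.9 to 144 CPM). Of the others, *Klk1* was at most 4.64 CPM in a mouse, *Spib* 1.29 CPM, *Cox6a2* 0.50 CPM, *Siglech* 0.45 CPM and *Cd300c* 0.31 CPM. The 12 epithelial markers summed to 886 CPM in control ZT12 replicate 5 and 535 CPM in knockout ZT12 replicate 5, with at most 249.7 CPM in the other mice and *Muc2* under 10 counts in all libraries together. The sums of 8 markers of stromal and endothelial cells did not overlap between the times in control mice, at 41.3 to 45.9 CPM at ZT0 and 24.0 to 38.9 CPM at ZT12. They were at 33.5 to 47.2 CPM and 26.4 to 42.7 CPM in knockout mice. Most of the sum came from 1 gene, *Pecam1*, which overlapped in control mice, at 36.0 to 42.4 CPM and 19.1 to 37.1 CPM. *Cdh5* also overlapped, at 1.77 to 3.10 CPM and 1.43 to 4.32 CPM, and *Col1a1* was at most 0.62 CPM in control mice. The 12 markers of other B cells summed to 985 to 1379 CPM at ZT0 and 1126 to 2818 CPM at ZT12 in control mice, and to 1191 to 2138 CPM and 964 to 2224 CPM in knockout mice. Markers of T and NK cells summed to between 13.0 and 36.1 CPM. The 13 genes of the response to tissue dissociation summed to between 2852 and 9552 CPM. The part of these cells in the levels of the 31 genes was not tested.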

How the data were processed

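The deposited values are raw counts for each gene, not normalized, with 1 column for each library of poly-A RNA. The aligner, the counter and the strand setting are not given in the sources used here, and the submitters' processing notes name DESeq and DESeq2. Gene positions equal those of GENCODE M21 (GRCm38) for all 31 members. Genes were kept if their counts over all libraries reached 10, and edgeR 4.0.16 (R 4.3.3; TMM, robust quasi-likelihood) was fitted to the 4 groups, with Benjamini-Hochberg adjustment over 20256 genes. No column was left unassigned to a sample. The 46 pairs of libraries within groups differed by more than sampling noise (29.5 to 242 chi-square units for each gene). At these depths, genes under 1 CPM have few counts, and counting error covers only that source. The exact permutation tests went through each possible division of the mice into 2 groups of the given sizes.

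The 31 members, the pathway and marker lists and the tests were chosen with earlier results of these data known. Named are all members called in a comparison, the 3 with the smallest p in each comparison, the 3 with the highest mean CPM, and, in the pathway list, called genes and the 3 smallest p of each comparison. *Cmpk2*, *Isg15*, *Ifnar1* and the members listed under the *Xist* term were named after their values were seen. The alternatives were DESeq2 1.42.0, other scalings, filters and thresholds, single comparisons, a replicate block and each library left out. Terms for *Xist*, place in the table and immunoglobulin share, removal of the trend on gene length, and omission of 2 libraries were added after the data were seen. The code was tested on simulated data. The values of 1 gene of the pathway list are not reported here.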

Additional observations from a re-analysis of the deposited data

Results flagged for a closer look

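Of 124 series of 4 to 6 mice (31 genes in 4 groups), 11 had a mouse whose gap to the nearest other mouse of its group was above Dixon's 95% limit, and chance gives about 1 in 20. In control ZT12 replicate 2, *Zbp1* was at 83.2 CPM (next 54.2 CPM) and *Gbp3* at 63.3 CPM (next 32.6 CPM). Long genes were low in that library, as in control ZT12 replicate 4 and knockout ZT0 replicate 3. In knockout ZT0 replicate 3 *Ifi35*, an interferon-induced leucine zipper protein, was at 23.1 CPM (next 13.9 CPM). In knockout ZT0 replicate 1, which had the highest level of 9 members, *Ifit1* was at 1.1 CPM (next 0.547 CPM, 20 counts) and *Oas1a*, an activator of the nuclease RNase L, at 0.604 CPM (next 0.467 CPM, 11 counts). *Oasl2* was at 3.8 CPM in control ZT12 replicate 1 (next 2.11 CPM), and *Parp9* was low in control ZT12 replicate 4, at 9.61 CPM (next 13.2 CPM). The other 4 rest on 12 counts or fewer: *Ifit1* at 0.707 CPM in control ZT0 replicate 1, *Ifi44* at 0.265 CPM in control ZT0 replicate 2 and at 0.191 CPM in knockout ZT0 replicate 2, and *Rtp4* at 0 CPM in knockout ZT12 replicate 5. What moved these levels was not tested.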

How the results depend on the processing

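In control mice the number of members called, 0, was 2 with DESeq2 (*Rsad2* and *Parp14*, adjusted p = 0.0121 and 0.0395), 1 with library size only (*Rsad2*), 1 with the *Xist* term (*Rsad2*, adjusted p = 0.00911 from edgeR) and 2 with a term for place in the table (*Rsad2* and *Gbp7*). With each library left out it was 0 to 3, at 3 without control ZT12 replicate 1 (*Rsad2*, *Parp14* and *Gbp7*) and 1 without control ZT12 replicate 6 (*Parp14*). In the other 4 comparisons it was 0 in each alternative run. The median log2 fold change in control mice was -0.42 with library size only, where the median of all genes was -0.20, and -0.28 to -0.19 with each library left out. The median of the interaction was 0.10 with library size only (0.19 over all genes), and -0.16 to 0.00 with each library left out. In knockout mice the range was -0.31 to -0.18, between the genotypes at ZT0 0.020 to 0.23 (highest without knockout ZT0 replicate 4) and at ZT12 -0.069 to 0.11 (highest without control ZT12 replicate 1). The sign of the log2 fold change turned in at least 1 alternative for 15 of the 31 members in control mice, 6 in knockout mice, 16 in the interaction, and 16 and 9 between the genotypes at ZT0 and ZT12. In control mice *Bst2* (0.14) was at -0.11 with library size only, -0.30 with the immunoglobulin share term, -0.19 with the trend on gene length removed, -0.046 without control ZT12 replicate 2 and knockout ZT0 replicate 3, and -0.040 to 0.24 with each library left out. *Isg15* (0.32) was at -0.011 in control mice with the trend removed. In knockout mice (-0.21) it was at 0.056 with the term for place in the table, 0.032 without those 2 libraries and -0.41 to 0.037 with each library left out. The cause of these shifts was not tested.

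The number of pathway genes called in control mice, 5, was 10 with DESeq2, 10 with library size only, 3 with DESeq2's size factors, 3 with no count filter, 1 at a threshold of 0.01, 2 with the groups of the comparison only, 0 with the immunoglobulin share term, 3 with the trend on gene length removed and 2 without control ZT12 replicate 2 and knockout ZT0 replicate 3. It was 2 to 9 with each library left out, at 9 without control ZT12 replicate 1. The interaction has no fit on fewer groups.

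Replicate numbers of the labels gave no sign of pairing the mice, though correlations this variable cannot exclude it. Over 28 pairs of equal number in different groups the correlation of deviations from the group means ran from -0.41 to 0.41, with a median of -0.04. Over 136 pairs of other numbers it ran from -0.73 to 0.69, with a median of -0.003. With the number as a block edgeR called 1 member in control mice (*Rsad2*, adjusted p = 0.0363), the median log2 fold changes were -0.23 in control and -0.24 in knockout mice, and 4 pathway genes were called. Depth limits the 7 members under 1 CPM most, and the small groups limit the interaction.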
